A study of Mus musculus with 15 samples.

Results

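The 42 genes described here are a working set of the mouse cell cycle program: 3 D-type cyclins of G1, 16 genes of the G1/S step and DNA replication, and 23 genes of G2 and mitosis. They were chosen by symbol, and each of the 42 was found once among the 23420 genes of the deposited tables. Levels were measured by RNA-seq in 15 libraries of frozen tissue from P1 (newborn) mouse pups: epidermis from 3 wild-type and 4 knockout pups, and tongue from 4 pups of each genotype. Knockout pups carried Tmprss11a,b,c,d,e,f,g-/-, the loss of a cluster of neighbouring genes for HAT/DESC membrane serine proteases. The labels name no transgene or Cre driver, all groups share age, and only the epidermis was separated from its tissue with warm EDTA before RNA extraction, so that this handling and the tissue cannot be told apart. The titles carry animal numbers, by which the libraries came from 9 pups, 6 of which gave both tissues. Knockout libraries 1, 2, 3 and 4 of both tissues came from pups A328, A343, A386 and A387. Wild-type epidermis libraries 1, 2 and 3 came from A325, A383 and A384, and wild-type tongue libraries 1, 2, 3 and 4 from A329, A342, A383 and A384. The numbers fall into the ranges A32x, A34x and A38x, whose meaning the labels do not state. A38x holds 2 wild-type and 2 knockout pups, each with both tissues.

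A dividing cell passes from G1 through S phase, in which DNA is copied, to G2 and mitosis. D-type cyclins start the release of E2F transcription factors from the retinoblastoma protein, cyclin E with Cdk2 completes it, and E2F then drives the genes for origin licensing, the MCM helicase and nucleotide supply. Genes of G2 and mitosis are switched on later by the MuvB complex with B-Myb and Foxm1, largely through CHR and CCAAT promoter elements. In epidermis and in tongue epithelium division is held mostly to the basal layer, while a newborn tongue also holds dividing connective tissue and muscle precursors.

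Because the replication and mitosis genes are known for different promoter elements, promoter sequences of both kinds are shown first. The 10 members called between genotypes, 9 of them S phase genes, all came from 1 fit. It compared epidermis of 2 wild-type and 2 knockout A38x pups, where 1.46% of all genes were lower in knockout. No member was called over all libraries of either tissue. RefSeq promoters (GRCm38.p6) were matched for 32 of the 42 members, 34 promoters in all. The 150 bases before the start site are given below for 6 replication genes called lower in that fit and for 4 mitosis genes, each without an annotated exon in the window. The 4 mitosis genes are examples picked by no rule. In this window a CHR element was present in 5 of 17 G2/M promoters (29.4%). The windows of Birc5, Bub1b, Cenpf and Kif23 are also free of annotated exons, hold no CHR element and are not shown. Lower case is background sequence, and capitals mark every match, on either strand, to CCAAT, to a CHR element (TTTGAA or TTCGAA) or to an E2F element (TTCCCGC, the form TTGGCGC, the form TTCGCGC or the form TTGCCGC). Neighbouring matches can share bases, as in Mcm6, where TTGGCGC overlaps TTCGCGC read on the other strand (GCGCGAA).
Cdc6 (chr11:98908001-98908150, plus strand): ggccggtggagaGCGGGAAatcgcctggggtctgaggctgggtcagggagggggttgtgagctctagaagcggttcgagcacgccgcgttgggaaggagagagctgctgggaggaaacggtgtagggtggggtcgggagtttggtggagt
Mcm2 (chr6:88898781-88898930, minus strand): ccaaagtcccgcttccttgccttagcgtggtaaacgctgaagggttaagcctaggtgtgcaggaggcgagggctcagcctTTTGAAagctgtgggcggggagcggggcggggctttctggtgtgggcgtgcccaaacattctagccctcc
Mcm3 (chr1:20820313-20820462, minus strand): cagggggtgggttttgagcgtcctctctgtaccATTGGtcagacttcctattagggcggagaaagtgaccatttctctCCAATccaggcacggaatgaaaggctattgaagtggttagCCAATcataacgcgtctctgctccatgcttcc
Mcm5 (chr8:75109359-75109508, plus strand): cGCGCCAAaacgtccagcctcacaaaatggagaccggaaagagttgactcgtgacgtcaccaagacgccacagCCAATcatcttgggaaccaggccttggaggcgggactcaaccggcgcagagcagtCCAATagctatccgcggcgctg
Mcm6 (chr1:128359706-128359855, minus strand): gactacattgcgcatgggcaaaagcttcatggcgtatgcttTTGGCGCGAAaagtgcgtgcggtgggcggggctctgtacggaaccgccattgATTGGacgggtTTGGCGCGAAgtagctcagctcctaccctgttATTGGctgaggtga
Tyms (chr5:30073626-30073775, minus strand): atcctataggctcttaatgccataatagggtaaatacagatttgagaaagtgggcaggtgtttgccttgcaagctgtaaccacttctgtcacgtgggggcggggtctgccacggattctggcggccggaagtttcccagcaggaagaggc
Ccnb2 (chr9:70421555-70421704, minus strand): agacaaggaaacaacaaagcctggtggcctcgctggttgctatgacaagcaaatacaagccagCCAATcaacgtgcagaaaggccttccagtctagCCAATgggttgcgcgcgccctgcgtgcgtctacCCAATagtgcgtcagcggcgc
Kif11 (chr19:37376232-37376381, plus strand): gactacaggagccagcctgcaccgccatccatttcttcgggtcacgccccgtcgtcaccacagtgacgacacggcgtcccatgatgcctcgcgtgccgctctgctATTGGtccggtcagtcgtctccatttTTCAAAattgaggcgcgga
Mki67 (chr7:135716380-135716529, minus strand): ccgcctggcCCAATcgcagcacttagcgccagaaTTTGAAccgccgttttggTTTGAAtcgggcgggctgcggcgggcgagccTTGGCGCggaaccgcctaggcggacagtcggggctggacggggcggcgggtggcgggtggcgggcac
Top2a (chr11:99024190-99024339, minus strand): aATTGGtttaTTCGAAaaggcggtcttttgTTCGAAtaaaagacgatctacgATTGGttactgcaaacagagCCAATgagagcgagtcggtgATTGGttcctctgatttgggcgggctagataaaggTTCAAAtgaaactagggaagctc

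Over the 250 bases before the start, an E2F element was present in 8 of 15 S phase promoters (53.3%), in 3 of 17 G2/M promoters (17.6%) and in 7.89% of all 32851 promoters of the table. A CHR element was present in 7 of 17 G2/M promoters (41.2%), in 2 of 15 S phase promoters (13.3%) and in 17.1% of all promoters. CCAAT was present in 15 of 17 G2/M promoters (88.2%), in 10 of 15 S phase promoters (66.7%) and in 33.9% of all. These are matches of letters, given as a description. Of the 10 windows shown, that of Tyms holds no match.

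The libraries held 10117819 to 17819195 counted reads, and the 42 members took 0.0916 to 0.258% of them. Mitochondrial ribosomal RNA took 35.5 to 40.8% of the reads of tongue libraries and 20.1 to 23.8% of those of epidermis libraries, except wild-type epidermis library 1, which stood apart at 44.6% and had the lowest depth. The 6 targeted genes analysed here summed to 349.9 to 387.4 CPM in wild-type tongue and 135.5 to 150.7 in knockout tongue, and to 236.4 to 308.4 CPM in wild-type epidermis. In knockout epidermis the sums were 108.8, 250.5, 154.2 and 168.4 CPM, so that library 2 lay inside the wild-type range, through Tmprss11f. Tmprss11b did not overlap, at 3.54 to 3.69 CPM in wild-type and 0.332 to 1.15 CPM in knockout epidermis. Nor did Tmprss11d, at 0.895 to 1.18 against 0.523 to 0.616 CPM, or Tmprss11e, at 3.245 to 4.306 against 1.722 to 2.735 CPM. Tmprss11a, Tmprss11f and Tmprss11g overlapped, and the mean of Tmprss11g was higher in knockout epidermis, at 11.05 CPM against 8.25 CPM in wild type. CPM here means read counts scaled by the library's total after TMM, on 1 scale over all 15 libraries. Markers followed the tissue labels: Krt1, Krt10, Lor, Flg and Ivl summed to 25730 to 51010 CPM in epidermis and to 102.6 to 219.7 in tongue, and the 5 tongue epithelium markers Krt4, Krt13, Krt6a, Krt84 and Rptn to 7528 to 12150 CPM in tongue and 296.8 to 1262 in epidermis. Strand-specific counting is not stated, so reads of opposite-strand neighbours cannot be told apart, which concerns 29.3% of the exon length of Kif20a (with Cdc23), 23.4% of Ccnd1 (with LTO1) and 17.4% of Ccne2 (with Ints8). Processed pseudogenes of Pcna, Tyms, Ccnb1, Ccnb2 and Ccnd3 elsewhere in the genome could share reads with their parents.

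**Figure D1:**
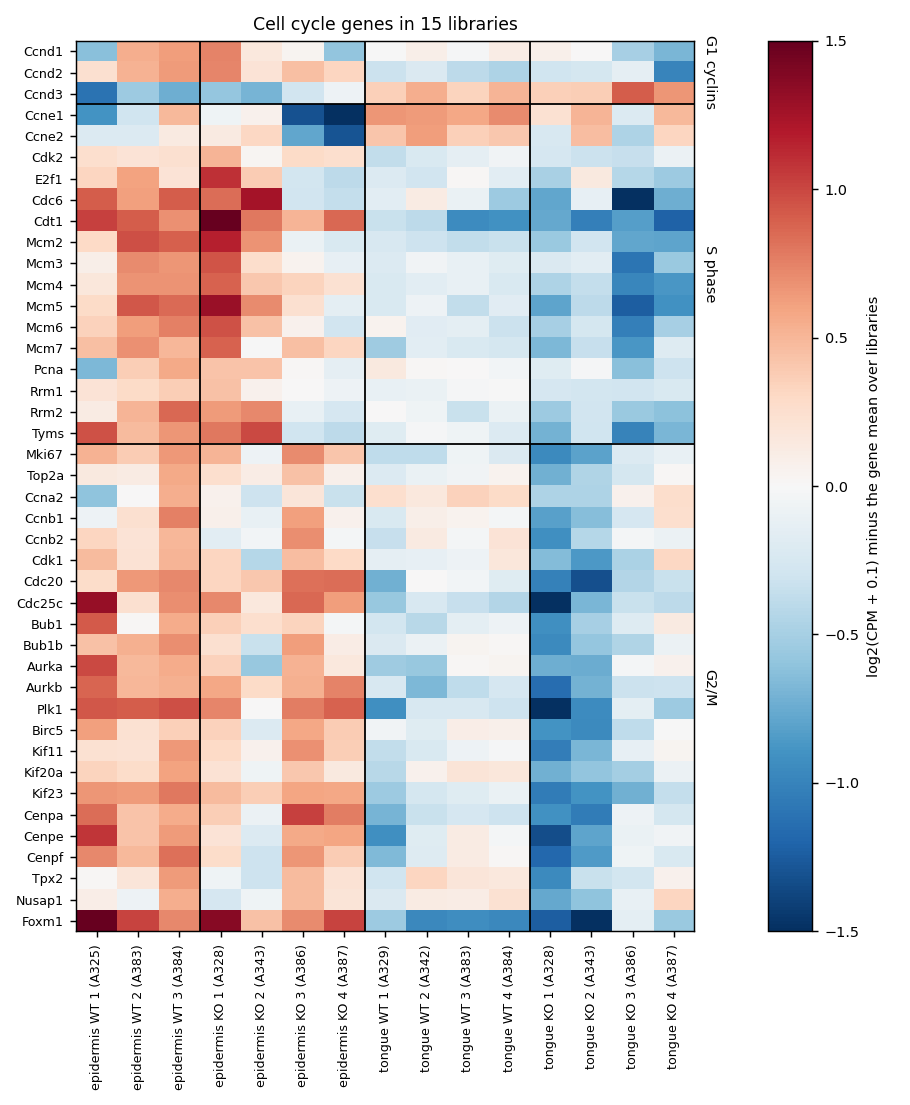
Levels of the 42 members (rows, by phase) in the 15 libraries (columns, by group), as log2(CPM + 0.1) minus the gene's mean over all libraries. Most rows are higher in the 7 epidermis libraries than in the 8 tongue libraries, and Ccnd3, Ccne1 and Ccne2 are mostly higher in tongue.

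Most of the program was higher in epidermis than in tongue, in both genotypes. Between wild-type tissues 30 of the 42 members were higher in epidermis and 2, Ccnd3 and Ccne2, were lower, with edgeR's quasi-likelihood test and an adjusted p under 0.05. Of all 16577 genes tested, 32% were higher and 31.6% lower in this comparison. The 30 were 16 of 23 G2/M genes, 13 of 16 S phase genes and 1 of 3 D-type cyclins. Between knockout tissues 30 of 42 were again higher and only Ccnd3 was lower, against 32.7% and 31.1% of 16398 genes. The median log2 fold change of epidermis over tongue was 0.79 for the G2/M genes, 0.70 for the S phase genes and 0.03 for all genes in wild type, and 0.80, 0.89 and 0.07 in knockout. Of the 30 members higher in each genotype 27 were the same, 90% of each list, where the same share over all genes was 87.22% of the wild-type and 86.46% of the knockout list. Aurka, Cdk1 and E2f1 passed in wild type alone and Kif20a, Pcna and Top2a in knockout alone. Without wild-type epidermis library 1, Ccnb1, Ccnd1, Kif20a, Pcna and Top2a were also called higher in wild type, and Birc5 was no longer called. With the pup as a block, since both knockout tissues came from the same pups, Ccnb1, Ccnb2 and Cdk1 were also called higher and Ccne1 lower in knockout epidermis, and Rrm1 was no longer called. In wild type only A383 and A384 gave both tissues. The other wild-type pups add nothing to the tissue difference under that block, which thus rests on 2 pups. It called Ccnb1, Ccnd1 and Pcna higher and no longer called Aurka, Birc5, Bub1, Ccne2, Cdk1, Cdk2, E2f1 and Rrm1. No member's tissue difference was shown to differ between genotypes, as given below with the test of that difference. The wild-type groups did not overlap for 32 members higher and 3 lower in epidermis, where 31.7% and 34% of all genes did not, and the knockout groups for 20 and 1, where it was 28.6% and 29.9%. In bulk tissue, fewer cells of a type and less RNA per cell cannot be told apart.

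Other cell types moved with tissue. The 7 basal keratinocyte markers summed to 3848 to 6826 CPM in wild-type epidermis and 1271 to 1453 CPM in wild-type tongue, and the 6 skeletal muscle markers to 90 to 239 and 21350 to 42310 CPM. Their part in the difference of the cell cycle genes was not tested. Scaling by library totals alone moved the median of all genes to 0.21 in wild type and 0.30 in knockout, and members called higher and lower became 32 and 1 in wild type and 37 and 1 in knockout.

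**Figure D2:**
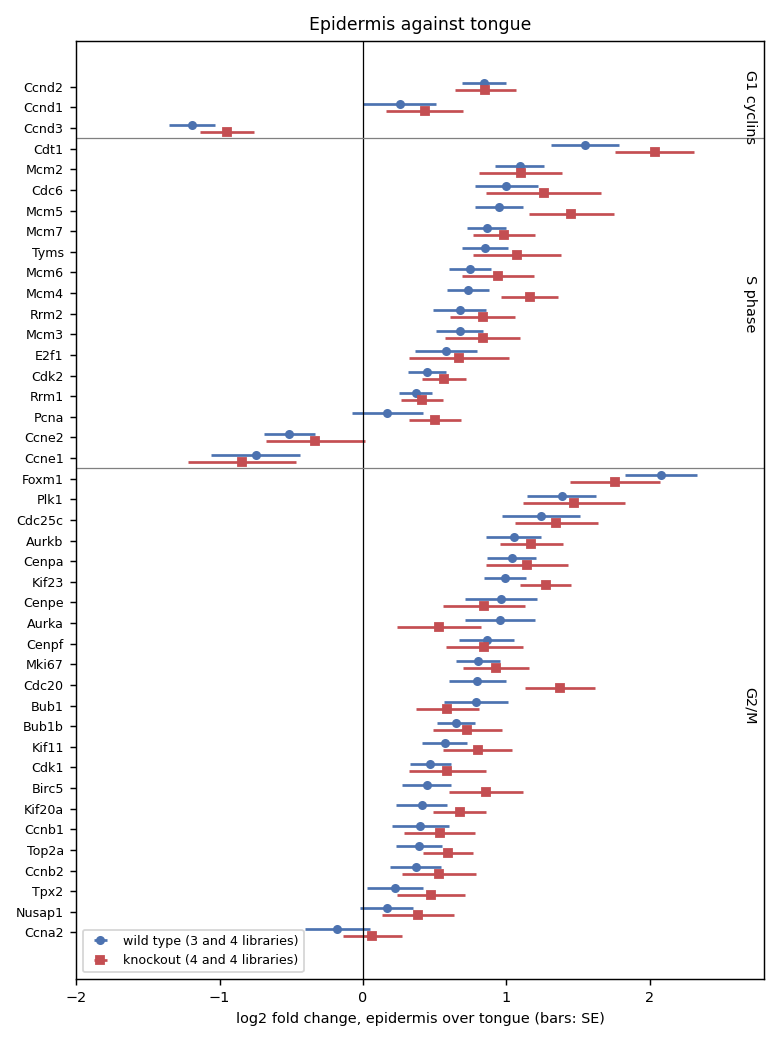
Log2 fold change of epidermis over tongue for each member, with its standard error, in wild-type and in knockout pups. Foxm1, Cdt1 and Plk1 lie farthest to the epidermis side, and Ccnd3 and Ccne1 farthest to the tongue side, in both genotypes.

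The 3 D-type cyclins, which bind Cdk4 and Cdk6 in response to growth signals, differed among themselves. Ccnd2 (chr6:127125162-127152193, minus strand, GRCm38) was at 243, 296 and 320.2 CPM in wild-type epidermis libraries 1 to 3, at 342.3, 237, 282 and 258 CPM in knockout epidermis libraries 1 to 4, at 165, 177, 157 and 149 CPM in wild-type tongue and at 167, 172, 189 and 104 CPM in knockout tongue. Every epidermis library lay above every tongue library, and the log2 fold change of epidermis over tongue was 0.85 (SE 0.15, adjusted p = 0.00105) in wild type and 0.85 (SE 0.21, adjusted p = 0.00394) in knockout. Ccnd3 (chr17:47505051-47599691, plus strand) ran the opposite way. Its levels were 23.2, 34.4 and 30.0 CPM in wild-type and 33.5, 30.9, 41.2 and 47.4 CPM in knockout epidermis, and 64.2, 73.0, 63.3 and 71.2 CPM in wild-type and 64.2, 64.6, 94.1 and 79.4 CPM in knockout tongue. All tongue libraries were above all epidermis libraries, with a log2 fold change of -1.19 (SE 0.16, adjusted p = 0.000143) in wild type and -0.95 (SE 0.19, adjusted p = 0.000921) in knockout. Ccnd1 (chr7:144929931-144939925, minus strand) was at 38, 86.2 and 90.8 CPM in wild-type epidermis, 99.0, 65.9, 60.8 and 39.0 CPM in knockout epidermis, 58.9, 62.8, 58.5 and 63.6 CPM in wild-type tongue and 62.2, 59.4, 41.8 and 36.7 CPM in knockout tongue. The tissues overlapped, and Ccnd1 did not pass the test between tissues over all libraries: 0.26 (SE 0.25, adjusted p = 0.398) in wild type and 0.43 (SE 0.27, adjusted p = 0.179) in knockout. Wild-type epidermis library 1 was the lowest of the 3, and without it Ccnd1 was higher in wild-type epidermis at 0.55 (SE 0.10, adjusted p = 0.000199), as in the A38x pups alone at 0.52 (SE 0.12, adjusted p = 0.00131).

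The entry into S phase was split. Ccne1 and Ccne2, the cyclins that activate Cdk2, were among the few members with higher values in tongue. Ccne1 was at 2.24, 3.44 and 6.0 CPM in wild-type epidermis, 4.08, 4.48, 1.67 and 1.34 in knockout epidermis, 6.79, 6.71, 6.42 and 7.02 in wild-type tongue and 4.99, 6.12, 3.68 and 6.02 CPM in knockout tongue. Its log2 fold change of epidermis over tongue missed the threshold: -0.75 (SE 0.31, adjusted p = 0.0585) in wild type and -0.84 (SE 0.38, adjusted p = 0.0685) in knockout. With the pup as a block it passed in knockout, at -0.95 (SE 0.34, adjusted p = 0.0344), and it was lower in epidermis in each of the 4 knockout pups. In the A38x pups alone it was -1.73 (SE 0.36, adjusted p = 0.00323) in knockout and -0.52 (SE 0.26, adjusted p = 0.0862) in wild type. Ccne2 was at 7.05, 7.02 and 8.92 CPM in wild-type epidermis, 8.89, 10.1, 4.68 and 3.25 in knockout epidermis, 10.8, 12.6, 10.4 and 10.7 in wild-type tongue and 6.83, 11.3, 5.87 and 10.2 CPM in knockout tongue, with fold changes of -0.51 (SE 0.18, adjusted p = 0.0286) in wild type and -0.33 (SE 0.34, adjusted p = 0.416) in knockout. Ccne2 passed in wild type over all libraries, and in the A38x pups alone in knockout, at -1.06 (SE 0.33, adjusted p = 0.0236), against -0.42 (SE 0.20, adjusted p = 0.0695) in wild type. The wild-type call of Ccne2 was also lost with library totals alone and with all 15 libraries in 1 fit. E2f1, a transcription factor of S phase genes, was low throughout, at 5.59, 6.82 and 5.13 CPM in wild-type epidermis, 9.63, 5.80, 3.66 and 3.36 in knockout epidermis, 3.83, 3.64, 4.48 and 3.96 in wild-type tongue and 3.15, 4.92, 3.28 and 3.01 CPM in knockout tongue. The fold change of E2f1 was 0.58 (SE 0.21, adjusted p = 0.0392) in wild type and 0.67 (SE 0.35, adjusted p = 0.111) in knockout. In wild type E2f1 was no longer called with RLE factors, with DESeq2 or with all 15 libraries in 1 fit. Cdk2, the kinase itself, ranged over 32 to 33.0 CPM in wild-type epidermis, 28.4 to 39.5 in knockout epidermis, 21.5 to 26.7 in wild-type tongue and 21.9 to 26.1 CPM in knockout tongue.

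Origin licensing genes were higher in epidermis. Cdt1, which loads the MCM helicase onto origins together with Cdc6, showed the widest tissue difference of the S phase genes. Its levels were 11.4, 10.6 and 8.97 CPM in wild-type and 17.5, 9.70, 7.96 and 10.2 CPM in knockout epidermis, and 4.40, 4.2, 2.84 and 2.91 CPM in wild-type and 3.22, 2.69, 3.08 and 2.33 CPM in knockout tongue. The groups were apart, and the log2 fold change was 1.55 (SE 0.24, adjusted p = 0.000371) in wild type and 2.03 (SE 0.28, adjusted p = 5.0e-05) in knockout. Cdc6 was at 10.3, 8.41 and 10.3 CPM in wild-type and 9.84, 13.1, 4.47 and 4.26 CPM in knockout epidermis, and at 4.88, 5.98, 5.08 and 3.71 CPM in wild-type and 3.15, 5.0, 1.79 and 3.25 CPM in knockout tongue. Within knockout epidermis, Cdc6 in libraries 3 and 4 was below each of the other epidermis libraries. The fold change of Cdc6 between tissues was 1.0 (SE 0.22, adjusted p = 0.00309) in wild type and 1.26 (SE 0.40, adjusted p = 0.0158) in knockout.

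The 6 MCM genes encode the ring of the replicative helicase, and all 6 were higher in epidermis in both genotypes. Mcm2 was at 28.5, 45.6 and 43.5 CPM in wild-type and 52.2, 37, 21.7 and 19.8 CPM in knockout epidermis, and at 19.7, 18.8, 18 and 18.4 CPM in wild-type and 15.8, 19.1, 13.5 and 13.4 CPM in knockout tongue. Mcm5 was at 32.8, 51.5 and 48.6 CPM in wild-type and 66.3, 44.2, 31.9 and 24.2 CPM in knockout epidermis, and at 23.1, 25.6, 20.8 and 23.9 CPM in wild-type and 15.6, 20.6, 11.3 and 14.4 CPM in knockout tongue. Both genes had their 2 lowest epidermis values in knockout libraries 3 and 4. Mcm6 was at 69.4, 84.4 and 92.1 CPM in wild-type and 106, 73.9, 57.2 and 44.7 CPM in knockout epidermis, and at 56.6, 48.7, 49.4 and 43.8 CPM in wild-type and 38.7, 45.5, 26.8 and 38.6 CPM in knockout tongue. Mcm3 was at 27.1, 41.7 and 40.4 CPM in wild-type and 49.0, 30.6, 26.5 and 23.4 CPM in knockout epidermis, and at 22.2, 24.6, 23.7 and 22.4 CPM in wild-type and 21.9, 22.8, 11.8 and 17.4 CPM in knockout tongue. Mcm4 was at 45.1, 63.6 and 63.9 CPM in wild-type and 73.7, 53, 50.5 and 46.9 CPM in knockout epidermis, and at 34.2, 35.9, 37 and 34 CPM in wild-type and 28.9, 31.1, 20.3 and 21.7 CPM in knockout tongue. The 4 wild-type tongue values of Mcm4 lay above all 4 knockout values. Mcm7 ranged over 48.8 to 57.4 CPM in wild-type epidermis, 35.4 to 65.9 in knockout epidermis, 24.6 to 31.8 in wild-type tongue and 19.4 to 31.1 CPM in knockout tongue. In wild type the MCM log2 fold changes of epidermis over tongue were 1.09, 0.67, 0.73, 0.95, 0.75 and 0.86 for Mcm2 to Mcm7, and in knockout 1.10, 0.83, 1.16, 1.45, 0.94 and 0.98.

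Genes of nucleotide supply and the sliding clamp had smaller tissue log2 values than Cdt1 and Cdc6. Rrm2, the cell cycle regulated subunit of ribonucleotide reductase, was at 19.0, 25.0 and 31.7 CPM in wild-type and 27.3, 29.0, 16.2 and 14.7 CPM in knockout epidermis, and at 17.5, 16.7, 13.9 and 16.4 CPM in wild-type and 12, 14.3, 11.8 and 11.4 CPM in knockout tongue. Rrm1, its partner subunit, was at 77.2, 81.6 and 86.6 CPM in wild-type and 90.9, 70.0, 67.3 and 63.5 CPM in knockout epidermis, and at 62.3, 62.7, 66.4 and 66.8 CPM in wild-type and 56.3, 55.4, 54.9 and 57.2 CPM in knockout tongue. Tyms, thymidylate synthase, was at 28.9, 20.8 and 23.5 CPM in wild-type and 25.8, 29.6, 12.1 and 11.3 CPM in knockout epidermis, and at 13.1, 14.7, 14.3 and 12.9 CPM in wild-type and 9.06, 12.1, 7.36 and 9.21 CPM in knockout tongue. In tongue the wild-type values of Rrm1 and of Tyms lay above all knockout values. The tissue log2 fold changes were 0.67 for Rrm2, 0.37 for Rrm1 and 0.85 for Tyms in wild type, and 0.83, 0.41 and 1.075 in knockout. Pcna, the polymerase clamp, was at 23.5, 48.5 and 55.7 CPM in wild-type and 50.8, 50.6, 38.1 and 34.3 CPM in knockout epidermis, and at 41.7, 38.1, 37.8 and 36.6 CPM in wild-type and 33.1, 37.2, 24.3 and 30.3 CPM in knockout tongue. The fold change of Pcna was 0.17 (SE 0.25, adjusted p = 0.569) in wild type and 0.50 (SE 0.18, adjusted p = 0.0301) in knockout. Without wild-type epidermis library 1, the lowest epidermis value of Pcna, it was 0.45 (SE 0.11, adjusted p = 0.00282) in wild type.

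Mki67 and Top2a had the highest levels per exon length of the G2/M genes in all 4 groups. Mki67, the proliferation antigen that coats mitotic chromosomes, was at 266, 242 and 291 CPM in wild-type and 265, 177, 303 and 249 CPM in knockout epidermis, and at 143, 143, 177 and 159.9 CPM in wild-type and 96.1, 107, 161 and 171 CPM in knockout tongue. Its log2 fold change of epidermis over tongue was 0.80 (SE 0.15, adjusted p = 0.00149) in wild type and 0.93 (SE 0.23, adjusted p = 0.00426) in knockout. Top2a, which untangles DNA before chromosomes separate, was at 147, 144 and 197 CPM in wild-type and 158, 143, 181 and 140.2 CPM in knockout epidermis, and at 115, 124, 128 and 138 CPM in wild-type and 80.7, 97.2, 110.4 and 134 CPM in knockout tongue. Its fold change was smaller, 0.39 (SE 0.16, adjusted p = 0.0554) in wild type and 0.59 (SE 0.17, adjusted p = 0.011) in knockout. Without wild-type epidermis library 1 that of Top2a was 0.45 (SE 0.13, adjusted p = 0.00678) in wild type. Knockout tongue libraries 1 and 2 had the lowest 2 values of both genes.

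The kinases and cyclins of mitotic entry were uneven. Ccnb1, the cyclin that activates Cdk1, was at 18.4, 22.9 and 32.8 CPM in wild-type and 20.5, 18, 29.8 and 20.3 CPM in knockout epidermis, and at 16.6, 20.5, 20.1 and 19.1 CPM in wild-type and 11, 12.4, 16.2 and 23.1 CPM in knockout tongue. Cdk1 was at 43.2, 36.0 and 44.2 CPM in wild-type and 38.8, 23.0, 42.7 and 38.1 CPM in knockout epidermis, and at 28.2, 28.4, 29.4 and 34.8 CPM in wild-type and 19.7, 17.1, 22.3 and 38.4 CPM in knockout tongue. Ccnb1 did not pass between tissues over all libraries, at 0.40 (SE 0.20, adjusted p = 0.103) in wild type and 0.53 (SE 0.25, adjusted p = 0.0799) in knockout, and Cdk1 passed in wild type, at 0.47 (SE 0.14, adjusted p = 0.0174) in wild type and 0.59 (SE 0.27, adjusted p = 0.0753) in knockout. Without wild-type epidermis library 1, Ccnb1 was at 0.56 (SE 0.16, adjusted p = 0.00534) in wild type. With the pup as a block, which in wild type rests on A383 and A384 alone, Ccnb1 passed in both genotypes. It was at 0.50 (SE 0.20, adjusted p = 0.0207) in wild type and 0.56 (SE 0.21, adjusted p = 0.0453) in knockout. Under that block Cdk1 was at 0.33 (SE 0.18, adjusted p = 0.0995) in wild type and 0.61 (SE 0.20, adjusted p = 0.0252) in knockout. Plk1, a kinase acting from mitotic entry to cell division, was at 6.83, 6.72 and 7.02 CPM in wild-type and 5.96, 3.56, 6.08 and 6.61 CPM in knockout epidermis, and at 1.82, 2.99, 2.99 and 2.83 CPM in wild-type and 0.921, 1.79, 3.18 and 2.39 CPM in knockout tongue. Plk1 values of wild-type epidermis lay above all knockout epidermis values, and its tissue fold change was 1.39 (SE 0.24, adjusted p = 0.000814) in wild type and 1.47 (SE 0.36, adjusted p = 0.00346) in knockout. Aurka, the spindle pole kinase, was at 12.9, 9.02 and 9.48 CPM in wild-type and 8.16, 4.31, 9.26 and 7.17 CPM in knockout epidermis, and at 4.40, 4.28, 6.49 and 6.62 CPM in wild-type and 3.84, 3.8, 6.27 and 6.69 CPM in knockout tongue. Ccna2, Ccnb2 and Cdc25c, the cyclins A2 and B2 and a phosphatase that activates Cdk1, ranged over 21.8 to 48.5, 13.1 to 16.2 and 7.43 to 15.8 CPM in wild-type epidermis and over 36.9 to 42.1, 9.0 to 13.2 and 4.21 to 5.33 CPM in wild-type tongue. In knockout they ranged over 26.3 to 37.7, 10.2 to 18.6 and 7.05 to 11.5 CPM in epidermis and 24.1 to 39.9, 5.99 to 11.1 and 2.0 to 4.97 CPM in tongue. Cdc25c passed in both genotypes, at 1.24 (SE 0.27, adjusted p = 0.00306) in wild type and 1.35 (SE 0.29, adjusted p = 0.0015) in knockout. Ccna2 had tissue log2 values of -0.18 and 0.07 in wild type and knockout, which became 0.04 in wild type with library totals alone and -0.01 in knockout with RLE factors.

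The chromosomal passenger and spindle genes were mostly higher in epidermis. Aurkb, the passenger kinase that corrects attachments at centromeres, was at 16.4, 12.7 and 13.0 CPM in wild-type and 13.4, 10.9, 13.0 and 15 CPM in knockout epidermis, and at 7.56, 5.58, 6.87 and 7.51 CPM in wild-type and 3.99, 5.44, 7.16 and 7.18 CPM in knockout tongue. Birc5, survivin, a subunit of the same complex, was at 16.7, 12.7 and 13.9 CPM in wild-type and 13.8, 9.37, 16.2 and 14.1 CPM in knockout epidermis, and at 10.4, 9.54, 11.6 and 11.4 CPM in wild-type and 5.76, 5.52, 8.26 and 10.8 CPM in knockout tongue. Tissue fold changes were 1.05 (SE 0.19, adjusted p = 0.00106) in wild type and 1.18 (SE 0.22, adjusted p = 0.000627) in knockout for Aurkb, and 0.44 (SE 0.17, adjusted p = 0.0448) in wild type and 0.85 (SE 0.26, adjusted p = 0.0121) in knockout for Birc5. Both genes passed in both genotypes over all libraries, but in wild type Birc5 lay near the threshold. There it was no longer called with RLE factors, with DESeq2 or with the pup as a block (edgeR, 0.21, SE 0.22, adjusted p = 0.394). That block rests on A383 and A384 alone in wild type. Cdc20, which activates the anaphase-promoting complex, was at 18.2, 23.5 and 24.9 CPM in wild-type and 18.7, 19.8, 26.6 and 26.8 CPM in knockout epidermis, and at 9.09, 15, 14.6 and 13.2 CPM in wild-type and 7.37, 5.97, 11 and 11.9 CPM in knockout tongue. The kinesin Kif20a, of the central spindle, was at 24.4, 23.3 and 29.3 CPM in wild-type and 22.4, 18.4, 25.5 and 21.3 CPM in knockout epidermis, and at 14.4, 20.3, 22.1 and 21.8 CPM in wild-type and 11.7, 12.8, 13.5 and 18.1 CPM in knockout tongue. Kif23, a kinesin of cytokinesis, was at 34.4, 33.6 and 37.6 CPM in wild-type and 30.1, 27.9, 32.5 and 32.5 CPM in knockout epidermis, and at 14.8, 18, 19.1 and 20.1 CPM in wild-type and 10.4, 11.6, 13.1 and 16.9 CPM in knockout tongue. All 3 wild-type epidermis values of Kif23 lay above the 4 knockout values. The spindle motor Kif11 ranged over 41.9 to 56.6 and 37.7 to 58.2 CPM in wild-type and knockout epidermis and over 27.9 to 35.7 and 17.5 to 37.3 CPM in wild-type and knockout tongue. In the same order Tpx2, a spindle assembly factor, ranged over 24.2 to 37.1, 19.1 to 33.1, 19.3 to 29.7 and 12.3 to 24.9 CPM, and Nusap1, a microtubule-bundling protein, over 19.1 to 29.5, 16.9 to 28.1, 17.4 to 23.6 and 11.8 to 25.2 CPM. Neither Tpx2 nor Nusap1 passed the test between tissues in either genotype.

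Centromere and checkpoint genes were higher in epidermis in both genotypes. Cenpf, a kinetochore protein, was at 85.3, 72.4 and 91.3 CPM in wild-type and 62.3, 41.7, 81.4 and 67.1 CPM in knockout epidermis, and at 32.6, 45.0, 56.1 and 52.0 CPM in wild-type and 22.7, 28.5, 49.2 and 43.8 CPM in knockout tongue. Cenpa, the centromeric histone H3 variant, and Cenpe, a kinetochore motor, ranged over 24.7 to 32.8 and 42 to 65.6 CPM in wild-type epidermis, 17.2 to 37.5 and 27.1 to 47.1 in knockout epidermis, 11.3 to 15.3 and 16.5 to 34 in wild-type tongue, and 8.80 to 17.3 and 12.4 to 30.0 CPM in knockout tongue. Bub1 and Bub1b, proteins of the spindle checkpoint, ranged over 13.3 to 25.1 and 26.1 to 31.2 CPM in wild-type epidermis. They ranged over 13.0 to 16.9 and 15.2 to 29.6 CPM in knockout epidermis. The ranges were 9.86 to 12.5 and 16.6 to 19.7 CPM in wild-type tongue. In knockout tongue they were 6.91 to 14.5 and 9.82 to 18.1 CPM. All 5 of these genes passed in both genotypes, with log2 fold changes of 0.86, 1.04, 0.96, 0.79 and 0.65 in wild type for Cenpf, Cenpa, Cenpe, Bub1 and Bub1b. Foxm1, a transcription factor of G2/M genes, showed the widest difference of the 42 in wild type. Foxm1 was at 35.9, 22.7 and 18.6 CPM in wild-type and 29.0, 15.2, 18.4 and 22.7 CPM in knockout epidermis, and at 7.66, 5.66, 5.82 and 5.65 CPM in wild-type and 4.68, 3.65, 10.1 and 7.55 CPM in knockout tongue, with a log2 fold change of 2.08 (SE 0.25, adjusted p = 8.3e-05) in wild type and 1.76 (SE 0.32, adjusted p = 0.00043) in knockout.

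Levels between genes were compared per kilobase of annotated exon, as means ± SD of CPM per kb. In wild-type epidermis (n = 3) the order began with Ccnd2 at 30.4 ± 4.17, Mki67 at 26.5 ± 2.43, Top2a at 18 ± 3.29, Pcna at 17.7 ± 7.05 and Mcm6 at 17.6 ± 2.48. The last 3 of these differed by less than their SDs. The lowest were Ccne1 at 1.46 ± 0.722, E2f1 at 1.85 ± 0.277 and Cdc6 at 1.85 ± 0.209 CPM per kb. In wild-type tongue (n = 4) the order began with Ccnd2 at 17.2 ± 1.27, Pcna at 16.1 ± 0.923, Mki67 at 15.5 ± 1.63 and Top2a at 14.0 ± 1.04, and ended with Foxm1 at 1.08 ± 0.170, Cdc25c at 0.969 ± 0.0970 and Cdc6 at 0.939 ± 0.178 CPM per kb.

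No cell cycle gene was called between knockout and wild-type epidermis when all 7 libraries were compared. With edgeR 0 of the 42 members and 0 of 16073 genes (0.0%) passed, at an unadjusted p under 0.05 there were 0 members and 187 genes, and DESeq2 called 0 members and 1 gene. Of the 42 log2 fold changes of knockout over wild type, 38 were below 0, with a median of -0.19 for the members and 0.00 for all genes. The 95% interval lay within a 2-fold change in either direction for 36 of 42 members, and for 59.58% of all genes. The members with the smallest p were Aurka, at -0.55 (SE 0.30, adjusted p = 1.0), and Cenpf, at -0.41 (SE 0.24, adjusted p = 1.0). Kif23 and Plk1 were the only members whose groups did not overlap, both lower in knockout, where 0.915% of all genes were lower and 1.29% higher without overlap. Scaling by library totals alone moved the median of all genes from 0.00 to 0.07 and turned the sign of 6 members, Ccnd2, Kif11, Mcm4, Pcna, E2f1 and Cenpa.

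The 4 knockout epidermis libraries were unlike each other in S phase genes. The 16 S phase genes summed to 469.9, 588 and 609 CPM in wild-type epidermis and to 698, 525, 426 and 382.97 CPM in knockout epidermis. Libraries 3 and 4, from the A38x pups, were lowest, and library 1 was above all wild-type libraries. The 23 G2/M genes summed to 1015, 911 and 1134 CPM in wild type and 925, 708, 1102 and 918 CPM in knockout. Leaving out 1 library at a time, the S phase median ran from -0.44, without knockout library 1, to -0.09, without knockout library 4, and the G2/M median from -0.32, without knockout library 3, to -0.09, without knockout library 2. Without wild-type library 1, which stood apart in mitochondrial RNA, the S phase median was -0.28, and without knockout library 2, whose targeted genes lay in the wild-type range, it was -0.16. The 5 hair follicle markers also differed among these libraries, summing to 26.2, 127 and 156 CPM in wild type and 526, 204, 119.6 and 34 CPM in knockout, and their part in these values was not tested.

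Within the A38x pups, 2 wild type and 2 knockout, replication genes were lower in knockout epidermis and mitosis genes were not called. Of the 42 members 10 were lower and none higher, against 1.46% lower and 2.37% higher of 15760 genes. They were 9 of 16 S phase genes, Mcm2, Mcm3, Mcm5, Mcm6, Tyms, Rrm2, Cdc6, Ccne1 and Ccne2, and the G1 cyclin Ccnd1, with 0 of 23 G2/M genes. The median log2 fold change was -0.79 for the S phase genes, -0.01 for the G2/M genes and -0.01 for all genes. The log2 fold change of Mcm2 was -1.11 (SE 0.16, adjusted p = 0.00162), with 45.6 and 43.5 CPM in wild type and 21.7 and 19.8 CPM in knockout. That of Ccne1 was -1.65 (SE 0.34, adjusted p = 0.0154), that of Cdc6 -1.11 (SE 0.23, adjusted p = 0.0173), that of Tyms -0.93 (SE 0.19, adjusted p = 0.0134) and that of Rrm2 -0.88 (SE 0.19, adjusted p = 0.0173). For Mcm3, Mcm5, Mcm6, Ccne2 and Ccnd1 the log2 fold changes were -0.72, -0.84, -0.80, -1.01 and -0.83. Among G2/M genes Mki67 was at 0.04 (SE 0.15, adjusted p = 0.926), with a 95% interval of -0.28 to 0.37. All 23 intervals lay within a 2-fold change, as did those of 68.6% of all genes. The 5 tongue epithelium markers summed to 657 and 1025 CPM in the wild-type and 447 and 297 CPM in the knockout epidermis of these pups, and the 6 erythroid markers to 12.2 and 10.3 CPM in wild type against 22.9 and 20.5 CPM in knockout. Over all libraries Rptn made up most of the tongue epithelium sum in epidermis, with means of 639 CPM in wild type and 508 CPM in knockout. Krt6a was at 86.5 and 144 CPM, and Krt4, Krt13 and Krt84 were at 16.1, 19.3 and 0.752 CPM in wild-type epidermis. The part of both lists in the values of the cell cycle genes was not tested. This comparison rests on 2 pups a genotype, and none of the 10 calls held over all 7 libraries, where the S phase sum was highest in a knockout library outside the A38x range and every adjusted p was 1.0.

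**Figure D3:**
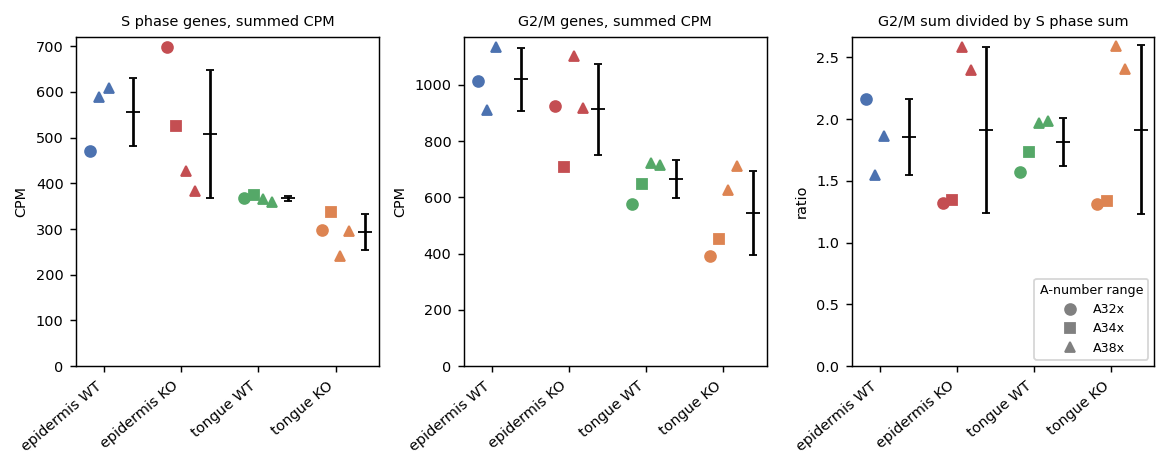
Summed CPM of the 16 S phase genes, of the 23 G2/M genes, and the ratio of G2/M to S phase sums, for each library by group. Points are libraries, marker shapes are animal number ranges, and bars are the mean ± SD. The highest ratios, 2.40 to 2.60, are those of the A38x knockout libraries of both tissues.

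In tongue the values of the cell cycle genes were also mostly below 0 in knockout, again with no member called. With edgeR 0 of 42 members passed and 2 of 15741 genes (0.0127%), while 14 members and 496 genes had an unadjusted p under 0.05. DESeq2 called 0 members and 4 genes. Of the 42 log2 fold changes 40 were below 0, with medians of -0.35 for the S phase genes, -0.30 for the G2/M genes and 0.01 for all genes. The interval lay within a 2-fold change for 39 of 42, and for 88.23% of all genes. The S phase genes with groups that did not overlap were Ccne1, Mcm4, Mcm5, Rrm1 and Tyms, all lower in knockout, where 1.44% of all genes were lower and 0.858% higher without overlap. Tyms was at -0.54 (SE 0.16, adjusted p = 0.939), Mcm5 at -0.59 (SE 0.16, adjusted p = 0.939) and Ccne1 at -0.36 (SE 0.18, adjusted p = 0.939). The 3 adipocyte markers summed to 198, 289, 224 and 198 CPM in wild-type and 183, 256, 83.7 and 129.7 CPM in knockout tongue, so knockout libraries 3 and 4 were the lowest. Nearly all of this sum was Fabp4, with means of 227 CPM in wild-type and 162.6 CPM in knockout tongue. Adipoq and Plin1 were near 0, at 0.0388 and 0.0187 CPM in wild-type and 0.221 and 0.115 CPM in knockout tongue. The sums thus describe Fabp4 and not the 3 markers together. Their part in the values of the cell cycle genes was not tested.

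The same tongue comparison split by animal number gave unlike balances of S phase and G2/M genes. In the A38x pups the S phase median was -0.43 and the G2/M median -0.08, with 0 members called, against 0.0563% of genes lower and 0.0376% higher. All 16 S phase genes and 16 of the 23 G2/M genes were below 0, and 7 S phase and 2 G2/M genes had an unadjusted p under 0.05, as had 2056 of 15975 genes. In the A32x and A34x pups, compared after the data had been seen, the S phase median was -0.27 and the G2/M median -0.61, again with 0 members called, against 0.0126% of genes lower and 0.0% higher. There all 23 G2/M genes were below 0, and 13 of them had an unadjusted p under 0.05, as had 219 of 15908 genes. The S phase sums were 367, 374, 366 and 360.1 CPM in wild-type and 298, 338, 241 and 296 CPM in knockout tongue. The G2/M sums were 578, 649, 723 and 714 CPM in wild-type and 391, 452, 626 and 713 CPM in knockout tongue, with knockout libraries 1 and 2 lowest.

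**Figure D4:**
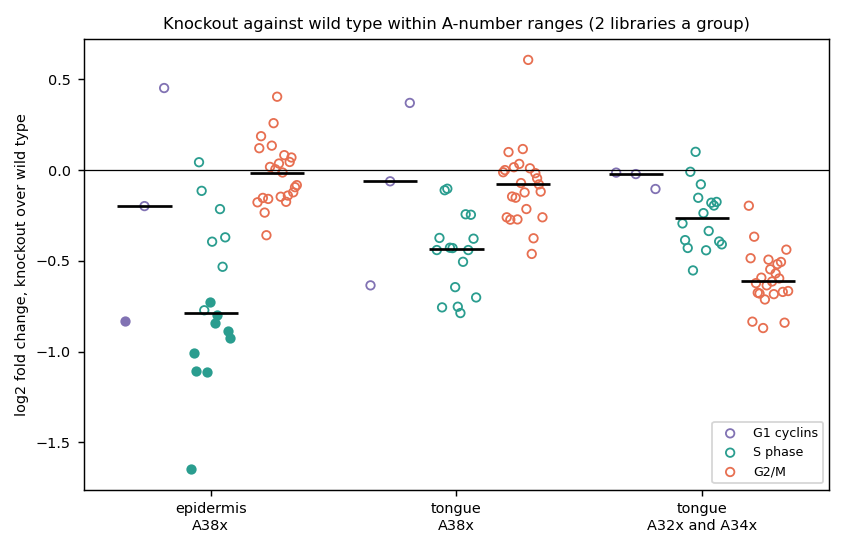
Log2 fold change of knockout over wild type for each member within animal number ranges: epidermis of the A38x pups, tongue of the A38x pups, and tongue of the A32x and A34x pups. Filled points have an adjusted p under 0.05 and horizontal bars are medians. In the A38x pups the S phase medians are -0.79 and -0.43 and the G2/M medians are near 0, while in the other tongues the G2/M median is -0.61.

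By summed CPM, the ratio of the G2/M sum to the S phase sum was close in the 2 tissues of each knockout pup. It was 1.33 in epidermis and 1.31 in tongue of A328, 1.35 and 1.34 in A343, 2.58 and 2.60 in A386, and 2.40 and 2.41 in A387. The A38x knockout pups thus lay above every wild-type library in both tissues and the other knockout pups below every one. In wild type it was 1.55 and 1.97 in A383 and 1.86 and 1.98 in A384. Wild-type pups with 1 tissue had 2.16 in A325 epidermis, 1.57 in A329 tongue and 1.73 in A342 tongue. The ratio is described for 6 pups with both tissues, with no test, and any meaning of the number ranges cannot be told apart from differences between pups.

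**Figure D5:**
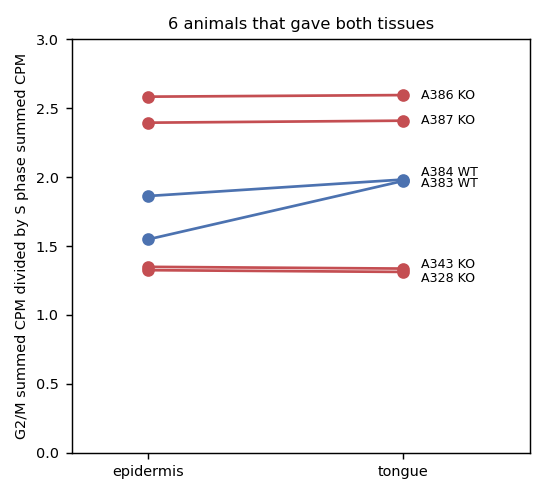
Ratio of the summed CPM of 23 G2/M genes to that of 16 S phase genes in epidermis and tongue of the 6 pups with both tissues, joined by a line per pup. The 4 knockout lines are nearly flat, 2 between 1.31 and 1.35 and 2 between 2.40 and 2.60, and the wild-type lines lie between 1.55 and 1.98.

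The knockout effect was not shown to differ between tissues for any member. With edgeR over all 15 libraries 0 of 42 members and 0 of 17935 genes (0.0%) passed for the difference, and DESeq2 called 1 gene. Within the A38x pups 19 genes passed, 0.0896% higher and 0.0168% lower, and 0 members. The same coefficient is the difference of the epidermis-to-tongue fold change between genotypes. For Mcm2 it was 0.01 (SE 0.37, adjusted p = 1.0) and for Mki67 0.12 (SE 0.29, adjusted p = 1.0), with 95% intervals of -0.79 to 0.80 and -0.51 to 0.74. In the A38x pups alone the value for Mcm2 was -0.69 (SE 0.23, adjusted p = 0.421), with an interval of -1.18 to -0.20. The difference changed sign for 19 of the 42 members when the A38x pups were taken alone, where 13 of the 16 S phase values were below 0, against 15 of 16 above 0 over all libraries.

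Other genes of the cell cycle were counted as lists against the same shares of all genes, 32% higher and 31.6% lower in wild type and 32.7% and 31.1% in knockout. Of 28 other replication genes 18 were higher and 1 lower in wild-type epidermis than in tongue, and of 39 other mitosis genes 25 were higher and 0 lower, with medians of 0.72 and 0.82. In knockout the counts were 18 and 1, and 27 and 0, with medians of 0.84 and 0.96. Uhrf1 was at 63.1 ± 7.41 CPM (SD, n = 3) in wild-type epidermis and 14.8 ± 2.27 CPM (n = 4) in wild-type tongue, and the spindle checkpoint kinase Ttk at 38.3 ± 11.9 and 7.27 ± 1.82 CPM. Of 17 pocket proteins and E2F or DREAM factors 8 were higher and 4 lower in wild type and 8 and 2 in knockout. Lin9, a MuvB subunit, was higher in epidermis, at 38.6 ± 8.62 against 9.31 ± 0.817 CPM in wild type, and E2f6, a repressor of the E2F family, was lower, at 11.6 ± 0.975 against 38.6 ± 4.54 CPM. Of 5 mitogen response genes 4 were higher in each genotype, among them Cdk6, the kinase partner of D-type cyclins, with log2 fold changes of 1.55 and 1.32. The CDK inhibitors ran both ways, with 1 of 6 higher and 2 lower in each genotype. Cdkn1c, an imprinted CDK inhibitor, was at 2.38 ± 1.09 CPM in wild-type epidermis and 361 ± 12.4 CPM in wild-type tongue, with a log2 fold change of -7.17 (SE 0.31, adjusted p = 1.8e-07). Of 8 p53 targets 3 were higher and 3 lower in wild type, and 1 and 2 in knockout. The counts of CDK inhibitors and p53 targets are too small to set apart from the shares of all genes.

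Between genotypes the same lists gave no call over all libraries of either tissue. Within the A38x pups, where 1.46% of all genes were lower and 2.37% higher in knockout epidermis, 4 of 28 other replication genes were lower in knockout epidermis: Uhrf1, which couples replication to DNA methylation (log2 fold change -0.92, SE 0.16, adjusted p = 0.00521), the polymerase subunit Pola1 (log2 fold change -0.82, SE 0.17, adjusted p = 0.015), the histone chaperone subunit Chaf1b (log2 fold change -0.80, SE 0.19, adjusted p = 0.0261) and DNA ligase Lig1 (log2 fold change -0.68, SE 0.17, adjusted p = 0.0418). Of 39 other mitosis genes 1 passed, Wee1, the kinase that holds Cdk1 inactive, which was higher (log2 fold change 1.27, SE 0.16, adjusted p = 0.000372). It stood at 21.8, 23.0 and 24.2 CPM in wild-type and 26.3, 23.8, 55.4 and 59.2 CPM in knockout epidermis, with libraries 3 and 4 above all others. Among 17 pocket proteins and E2F or DREAM factors 1 was higher, Rbl2, the p130 pocket protein (log2 fold change 0.68, SE 0.16, adjusted p = 0.0245). Rbl2 was at 65.2, 35.5 and 32.7 CPM in wild-type and 48.9, 31.0, 53 and 56.7 CPM in knockout epidermis, so that wild-type library 1, outside the A38x range, was the highest. Of 5 mitogen response genes 1 was lower, Mycn (log2 fold change -1.63, SE 0.26, adjusted p = 0.00274), and 0 of 6 CDK inhibitors passed. Mycn was at 1.79, 8.51 and 9.13 CPM in wild-type and 12.8, 3.81, 3.34 and 2.35 CPM in knockout epidermis, and outside the A38x range wild-type library 1 was lowest and knockout library 1 highest. Of 8 p53 targets 1 was higher, Trp53inp1, at 69.4, 71.2 and 57.4 CPM in wild-type and 85.6, 46.3, 462 and 436 CPM in knockout epidermis (log2 fold change 2.8, SE 0.16, adjusted p = 2.5e-07). It was also higher in the tongue of the A38x pups (log2 fold change 1.13, SE 0.14, adjusted p = 0.0475), at 118, 69.5, 72.2 and 67.2 CPM in wild-type and 105, 57.0, 147 and 158 CPM in knockout. Lists with 1 call among 5 to 39 genes are too short to set apart from these shares. No other gene of these lists passed between genotypes in tongue of either animal number range.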

How the data were processed

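RNA-seq was measured in 15 libraries of 9 P1 mice, in 4 groups of tissue and genotype. The authors deposited raw read counts per gene and a second table scaled by TMM, per the file headers, whose values are treated as a signal. The submitters' processing notes name STAR 2.5.2a, edgeR, limma, DESeq2 and the builds GRCm38.p3 and mm10. Counting software, strandedness and gene models were not given in the sources used. Per the labels' protocols, low-input SMARTer V4 libraries were sequenced as paired reads of 37 bases.

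The deposited counts were cut to expressed genes (filterByExpr, minimum count 10) and tested with edgeR 4.0.16 (R 4.3.3; quasi-likelihood F test, TMM factors, two-sided) within the 2 groups compared, or over all 15 libraries for the difference between tissues. p-values were adjusted by Benjamini-Hochberg across the whole table, and calls were made at 0.05. All 42 members passed the filter in each comparison. Pups are the replicates, and counting error, which the depth of 10117819 to 17819195 reads limits, is part of the spread between them. CPM for display used TMM factors over all libraries; per-length values used GENCODE exon lengths, available for 23337 of 23420 genes. Intervals are 95%. The count table also holds 2 entries for transgene sequences, which took 0.001 to 0.0044% of the reads and stayed out.

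The members, the other gene lists and the comparisons were chosen with earlier results of these data known, so no test over the list was made. Genes named with values in every library were a set of main members plus the 2 of each phase with the smallest p per comparison; the other A38x calls were added after their values were seen. Replicate numbers pair the knockout tissues, which came from the same animals. Deviations from the group means of same-numbered wild-type and knockout epidermis libraries, from different pups, had r of 0.627, 0.136 and 0.516. Differently numbered A38x pairs had r of 0.419, 0.341 and 0.142. An alternative fit treated the same-numbered libraries as paired. Alternatives were DESeq2 1.42.0, RLE factors, library totals, no filter, no mitochondrial genes, all libraries in 1 fit, blocks, animal number ranges and leaving out each library. The comparison within A32x and A34x tongue was added after seeing the data.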

Additional observations from a re-analysis of the deposited data

Results flagged for a closer look

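Sets were formed in the 3 groups of 4 libraries for the 27 members with values in every library, the 3 phase sums and the ratio of G2/M to S phase sums. Of these 93 sets of 4 values, 4 had an end value farther from the rest than Dixon's 95% limit for 4 samples, and chance gives about 1 in 20. Ccne2 was at 12.6 CPM in wild-type tongue library 2, against 10.4 to 10.8 in the other three. E2f1 was at 4.92 CPM in knockout tongue library 2, against 3.01 to 3.28. Wild-type tongue library 1 had Foxm1 at 7.66 CPM, against 5.65 to 5.82, and Plk1 at 1.82 CPM, against 2.83 to 2.99. No explanation of these values was tested.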

How the results depend on the processing

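Of the counts and medians recomputed under other settings, 449 stayed within 1.5 times (counts) or within the SD between libraries, 0.242 to 0.281 (medians), and 28 moved further. A median near 0 can change sign within that limit. For the 16 members named by rule for their small p, 30 fold changes were recomputed: 546 values kept their side of the threshold and their sign, 2 newly passed and 10 changed sign. Over all 42 members 0 to 11 changed sign in epidermis, 0 to 6 in tongue and 0 to 19 for the difference between tissues, in each with most in A38x. Between wild-type and knockout epidermis the count of genes past an adjusted p of 0.05 was 1 with DESeq2, 1 with all 15 libraries in 1 fit, 1 with the animal number range as a block, and, with fewer pups, 604 genes and 10 members in A38x, where the S phase median was -0.79. In tongue DESeq2 called 4 genes and the A38x pups gave 15, and the G2/M median in the A32x and A34x pups was -0.61. For the difference DESeq2 called 1 gene and A38x 19, and leaving out a library gave 0 to 1. There the A38x medians were -0.15 for G1 cyclins and -0.19 for S phase, the G1 median with a replicate block by animal was -0.16, and leaving out a library gave -0.10 to 0.32. Between wild-type tissues the G1 and G2/M medians were 0.52 and 0.48 in A38x and 0.55 and 0.50 with the replicate block by animal, and the G1 median ran from 0.040 to 0.55 without 1 library. Between knockout tissues the G1 median was 0.69 with library totals alone and 0.17 to 0.62 without 1 library, and the S phase median 0.53 in A38x. On the scale of the deposited values the wild-type tongue sums were 320.6 for G1 cyclins, 404.7 for S phase and 734.2 for G2/M. The knockout effect on Ccnd1 in epidermis changed sign with the replicate block (0.084) and without 1 library (-0.45 to 0.062; 0.00 without wild-type library 2, 0.062 without wild-type library 3 and 0.03 without knockout library 4), and that on Ccnd3 in tongue was -0.10 in the A32x and A34x pups. Among the members named by rule alone, the difference between tissues changed sign for Cdt1 and Ccnd1. For Cdt1 it was -0.019 in A38x. For Ccnd1 it was -0.21 in A38x and -0.17 with the replicate block by animal. Without 1 library that of Ccnd1 ran from -0.13 to 0.37. It was -0.13 without wild-type epidermis library 1 and -0.10 without knockout epidermis library 1. The cause of these moves was not tested.

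With the replicate block 0 members passed between genotypes in epidermis, and 32 members were higher and 2 lower between knockout tissues; the block changed no other call count by over 1.5 times. Tongue genotypes share only numbers (same-number r -0.157 to 0.596), and the block gave 0 members. Wild-type tissues share 2 pups, under different numbers (same-pup r -0.044 and 0.06; same-number r 0.086 to 0.125), and 26 members were higher and 1 lower both with a replicate block by number and with one by pup. The block by pup rests on those 2 pups alone. Leaving out each library gave 26 to 36 members called between wild-type tissues and 26 to 32 between knockout tissues. With 2 pups a genotype, small differences were not detectable.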
